A study of Homo sapiens with 24 samples.

Results

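The collagen genes were the 44 protein-coding genes whose symbol consists of COL, the number of the collagen type, A and the number of the chain, among 19586 protein-coding genes and 60675 genes in the expected-count table. They were sorted by the structure their proteins build into 11 fibrillar collagens, 9 network collagens, 6 beaded-filament and anchoring collagens, 10 FACIT collagens (fibril-associated collagens with interrupted helices), 4 transmembrane collagens and 4 multiplexins and other collagens. RNA was measured in SW1783, an established human astrocytoma cell line, after 24 h with a water extract (WESF) or an ethanol extract (EESF) of Schisandrae Fructus, the dried fruit of Schisandra chinensis. Batch A held vehicle A and WESF, whose low dose was 20 µg/mL, its medium dose 100 µg/mL and its high dose 500 µg/mL. Batch B held vehicle B and EESF, whose low dose was 12.4 µg/mL, its medium dose 62 µg/mL and its high dose 310 µg/mL. The vehicle was DMSO, at 0.1%. Each of the 8 groups had 3 libraries, and a dose was set against the vehicle libraries of the same batch. Because each extract had a batch of its own, and because the high doses were not equal in mass, extract, batch and dose cannot be told apart when the extracts are compared. In the study's preliminary cytotoxicity screening the high dose of WESF was not toxic, and that of EESF was at a partly inhibitory concentration. The part of this difference in the results was not tested. The labels number the replicates without saying that they were separate cultures, so p-values measure the spread between these libraries. Library totals ran from 18727797 to 32567395 expected counts, and the collagen genes took between 1.19% and 1.44% of the protein-coding counts of a library.

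Collagens are secreted proteins whose chains wind around each other into a helix before they leave the cell. Fibrillar collagens (types I, II, III, V, XI, XXIV and XXVII) assemble into fibrils, network collagens (types IV, VIII and X) into sheets such as the basement membrane, and type VI collagen into beaded filaments around cells. FACIT collagens such as types XII and XIV do not form fibrils alone but sit on the surface of fibrils built by other types. In the brain, collagens are mostly found in the basement membrane of vessels and in the meninges, and cultured glioma lines often make fibrillar collagens too.

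Levels are CPM, counts scaled to a common library size with TMM factors from all 24 libraries, and levels of different genes were compared as CPM per kilobase of annotated exon. In the 6 vehicle libraries COL1A1, a chain of type I collagen, stood highest at 422 ± 9.91 CPM per kilobase (SD, n = 6). It was followed by COL6A1, a chain of type VI collagen, at 288 ± 6.92, by COL5A1, a chain of type V collagen, at 213 ± 6.07, and by COL6A2, also of type VI, at 189 ± 10.0. COL1A2, the partner of COL1A1 in type I collagen, stood at 167 ± 4.10. The ranges of these 5 genes over the libraries did not overlap, from 162.0 to 172 for COL1A2 up to 408 to 431 for COL1A1. The next gene, COL5A2, was at 41.0 ± 1.35, and the network chains COL4A2 and COL4A1 were at 36.9 ± 0.982 and 22.0 ± 0.415. The last of these did not differ beyond its spread from COL12A1, the FACIT chain of type XII collagen, at 21.4 ± 1.44. COL8A1 and COL7A1, at 17.7 ± 0.327 and 17.3 ± 1.14, also overlapped. COL3A1, the chain of type III collagen, reached 5.12 ± 0.200 and COL2A1, the cartilage fibril chain, 0.00753 ± 0.00856, at no more than 4 counts in any of the 24 libraries. The exon lengths were merged over all annotated transcripts, and the order of genes depends on them. By mean CPM without this division COL5A1 (2376) and COL1A2 (1803) stood above COL6A1 (1592). The ranges cover the spread between libraries and not the choice of length.

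**Figure D1:**
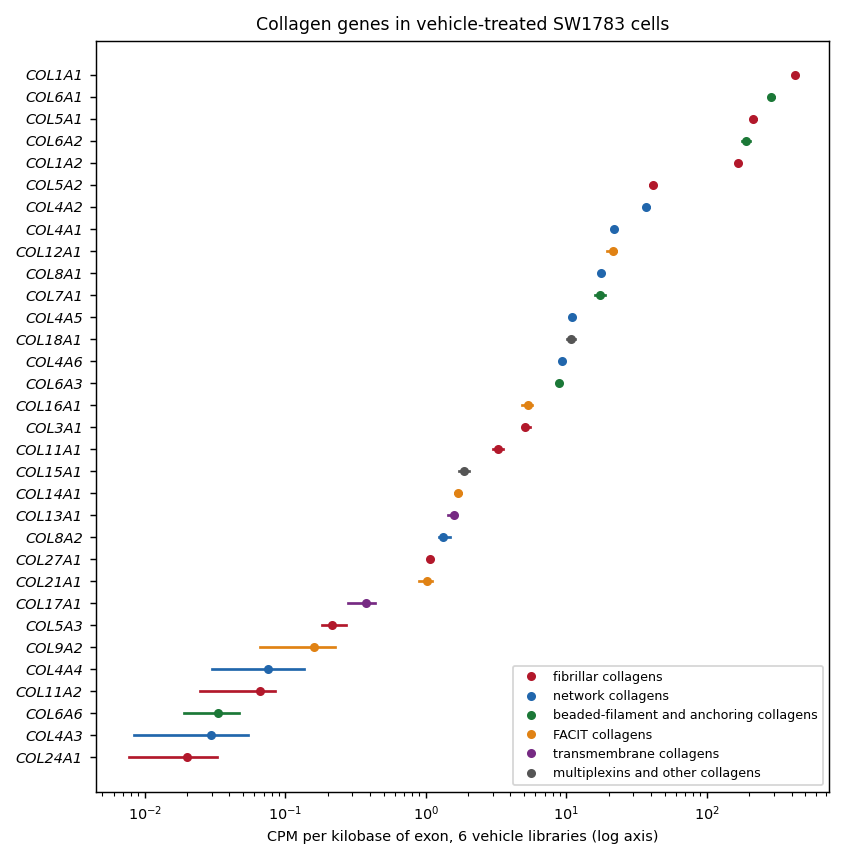
Levels of collagen genes in the 6 vehicle libraries, in CPM per kilobase of exon on a log axis; points are means, lines run from the lowest to the highest library and colours give the class. Genes with at least 10 counts in some library and a value above 0 in every vehicle library are drawn; COL1A1, COL6A1, COL5A1, COL6A2 and COL1A2 stand apart from the rest, at 162.0 CPM per kilobase or more.

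Of the 44 genes, 31 had enough counts to be tested in at least 1 comparison. The 13 others were removed by the filter on low counts: COL10A1, COL6A6, COL24A1, COL26A1, COL28A1, COL19A1, COL9A3, COL2A1, COL23A1, COL22A1, COL9A1, COL6A5 and COL25A1. COL6A6 had the most counts among them, 172 over the 24 libraries, and COL9A1 and COL6A5 had 1 each. Gene-level differences are log2 fold changes from edgeR's quasi-likelihood test, fitted on all protein-coding genes that passed the filter, with Benjamini-Hochberg adjusted p-values. A gene is said to have risen or fallen where its adjusted p was under 0.05, and is called a DEG where its fold change was also beyond 1.5.

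At the high doses 4 collagen genes fell as DEGs, and they were the same 4 with either extract: COL14A1, COL12A1, COL3A1 and COL21A1. A gene with few counts can pass the filter through the group where it is high, and its direction is then fixed by the filter. The counts and medians of the high doses against the vehicle therefore hold the genes that reached the filter's level in all 3 libraries of both groups, 27 collagen genes for WESF and 26 for EESF. COL20A1 and COL4A3 are left out of them, and so are COL11A2 and COL4A4, and with EESF COL9A2. With WESF the genes that fell as DEGs were 4 of 27 (14.8%), where 12.1% of all genes at that level did. With EESF they were 4 of 26 (15.4%), where the share of all genes was 8.66%. As DEGs 0 of 27 rose with WESF, beside 10.2% of all genes, and 0 of 26 with EESF, beside 7.36%. By the adjusted p alone, 7 collagen genes rose and 14 fell with WESF (25.9% and 51.9%), beside 34.7% and 34.8% of all genes. With EESF 4 rose and 12 fell (15.4% and 46.2%), beside 29.5% and 29.1%. The median log2 fold change of the collagen genes was −0.14 with either extract, and that of all genes was 0.00. RNA came from whole cultures, so fewer cells of a kind and less RNA per cell cannot be told apart.

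**Figure D2:**
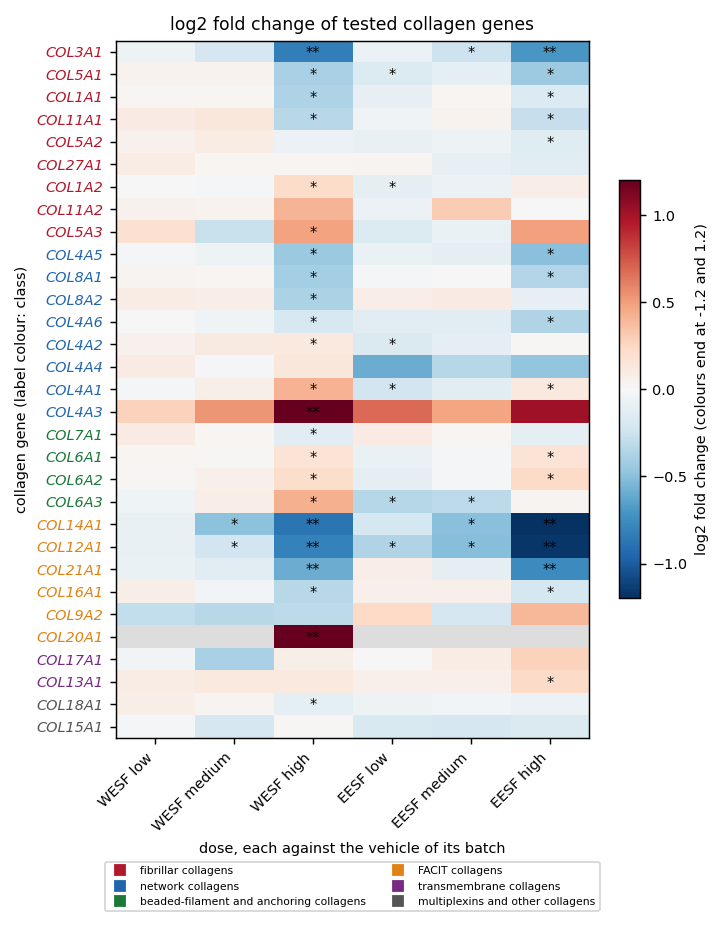
log2 fold change of the 31 tested collagen genes (rows, grouped by class and coloured by it) for each dose against the vehicle of its batch (columns); 1 asterisk marks an adjusted p under 0.05, 2 asterisks a DEG, and grey a gene not tested. The strongest blue at both high doses is in COL14A1, COL12A1, COL3A1 and COL21A1; COL4A3 and COL20A1, whose direction with WESF the filter fixed, go beyond the colour range.

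The FACIT collagens held 3 of the 4 genes that fell as DEGs at either high dose. Of the 10 genes of the class, 5 reached the filter's level in both groups with WESF, of which 4 fell and 0 rose, beside 34.8% and 34.7% of all genes. With EESF 4 did, and the 4 fell, beside 29.1% of all genes. Their median log2 fold change was −0.60 with WESF and −0.97 with EESF. Summed over the class, vehicle A lay between 445 and 503 CPM and WESF high between 286 and 290.2, and vehicle B lay between 447 and 493 and EESF high between 216 and 251. COL12A1 gave most of this sum in every group.

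COL12A1 (ENSG00000111799) lies on the minus strand of chromosome 6 from 75084326 to 75206267 (GRCh38) and encodes the chain of type XII collagen, which binds type I fibrils. Its RefSeq promoter is shown because the gene had the largest fall in CPM of the class. The sequence covers the 250 bases before the RefSeq start at 75206053, chr6:75206054-75206303, most of which lies inside the gene as GENCODE draws it, and capitals mark the GC box GGGCGG, here on the other strand as CCGCCC.
COL12A1: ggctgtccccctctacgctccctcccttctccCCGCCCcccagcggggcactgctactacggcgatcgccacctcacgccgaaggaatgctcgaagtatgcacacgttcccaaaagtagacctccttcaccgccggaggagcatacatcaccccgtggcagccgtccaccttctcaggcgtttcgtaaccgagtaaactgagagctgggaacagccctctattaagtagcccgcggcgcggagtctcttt
The TATA box TATAAA, the CCAAT box and the AP-1 motif TGANTCA, searched on both strands like GGGCGG, were not in these 250 bases. In batch A, COL12A1 was at 368, 427 and 425 CPM in vehicle A, 379, 399 and 369 at the low, 369, 344 and 332 at the medium and 237, 226 and 235 at the high dose of WESF. Batch B had it at 372, 419 and 413 CPM in vehicle B, 310.3, 304 and 328 at the low, 273, 301 and 271 at the medium and 201, 177 and 158 at the high dose of EESF. All 3 libraries of each high dose lay below every vehicle library, and with EESF those of the low and medium doses did too. The log2 fold change at the high dose was −0.81 (SE 0.0556, adjusted p = 1.34e-09) with WESF and −1.17 (SE 0.0804, adjusted p = 2.28e-07) with EESF, which is 1.75-fold and 2.25-fold lower.

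COL14A1 (ENSG00000187955) encodes the chain of type XIV collagen, which also coats type I fibrils. It was at 16.3, 16.5 and 18.2 CPM in vehicle A, 14.7, 16.9 and 16.3 at the low, 12.9, 12.5 and 10.9 at the medium and 8.89, 9.71 and 9.24 at the high dose of WESF. The batch B levels were 17.4, 17.1 and 18.3 CPM in the vehicle, 14.6, 13.96 and 17.5 at the low, 12.2, 11.7 and 13.3 at the medium and 7.85, 7.41 and 7.91 at the high dose of EESF. The medium and high doses of either extract lay below every vehicle library, and the low doses overlapped with the vehicle. At the high dose it was 1.83-fold lower with WESF (log2 −0.88, SE 0.0775, adjusted p = 3.00e-08) and 2.28-fold lower with EESF (log2 −1.19, SE 0.0758, adjusted p = 1.34e-07).

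COL21A1 (ENSG00000124749, chromosome 6, 56056590 to 56394094, minus strand) encodes the chain of type XXI collagen. It was at 6.52, 7.27 and 7.56 CPM in vehicle A, 7.35, 6.20 and 6.65 at the low, 6.74, 6.66 and 6.10 at the medium and 5.04, 4.48 and 4.56 at the high dose of WESF. For EESF and vehicle B it measured 6.19, 6.86 and 7.59 CPM in the vehicle, 7.39, 7.18 and 7.26 at the low, 5.76, 6.00 and 7.27 at the medium and 3.92, 3.90 and 4.32 at the high dose of EESF. The high doses lay below their vehicles and the low and medium doses overlapped with them. The log2 fold change was −0.60 (SE 0.110, adjusted p = 0.000128) with WESF, which passed the 1.5-fold threshold by little and missed it without any of 4 libraries, and −0.76 (SE 0.118, adjusted p = 0.000143) with EESF.

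COL16A1, the chain of type XVI collagen, fell less, by 0.33 with WESF and 0.21 with EESF on the log2 scale (adjusted p = 5.83e-05 and 0.0402). COL9A2, a cartilage FACIT chain at 0.677 CPM in the vehicle libraries, did not pass the test at either high dose (adjusted p = 0.343 and 0.311). COL20A1 had 10, 13 and 10 counts in the WESF high libraries and 0, 0 and 1 in vehicle A. The summed counts, 33 against 1, give a ratio of 39.8 after scaling, with an exact 95% interval from 6.66 to 1618 that covers counting error only. With EESF high it had 3, 5 and 10 counts and in vehicle B 0 in each library, so it was not tested there. Against an assumed floor of 3 counts over vehicle B the scaled ratio was 3.80, which leaves out counting error and is not a lower bound. These are counts of a gene that is barely detected. It passed the filter through WESF high, so the ratios of COL20A1 are descriptions and no call is made.

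**Figure D3:**
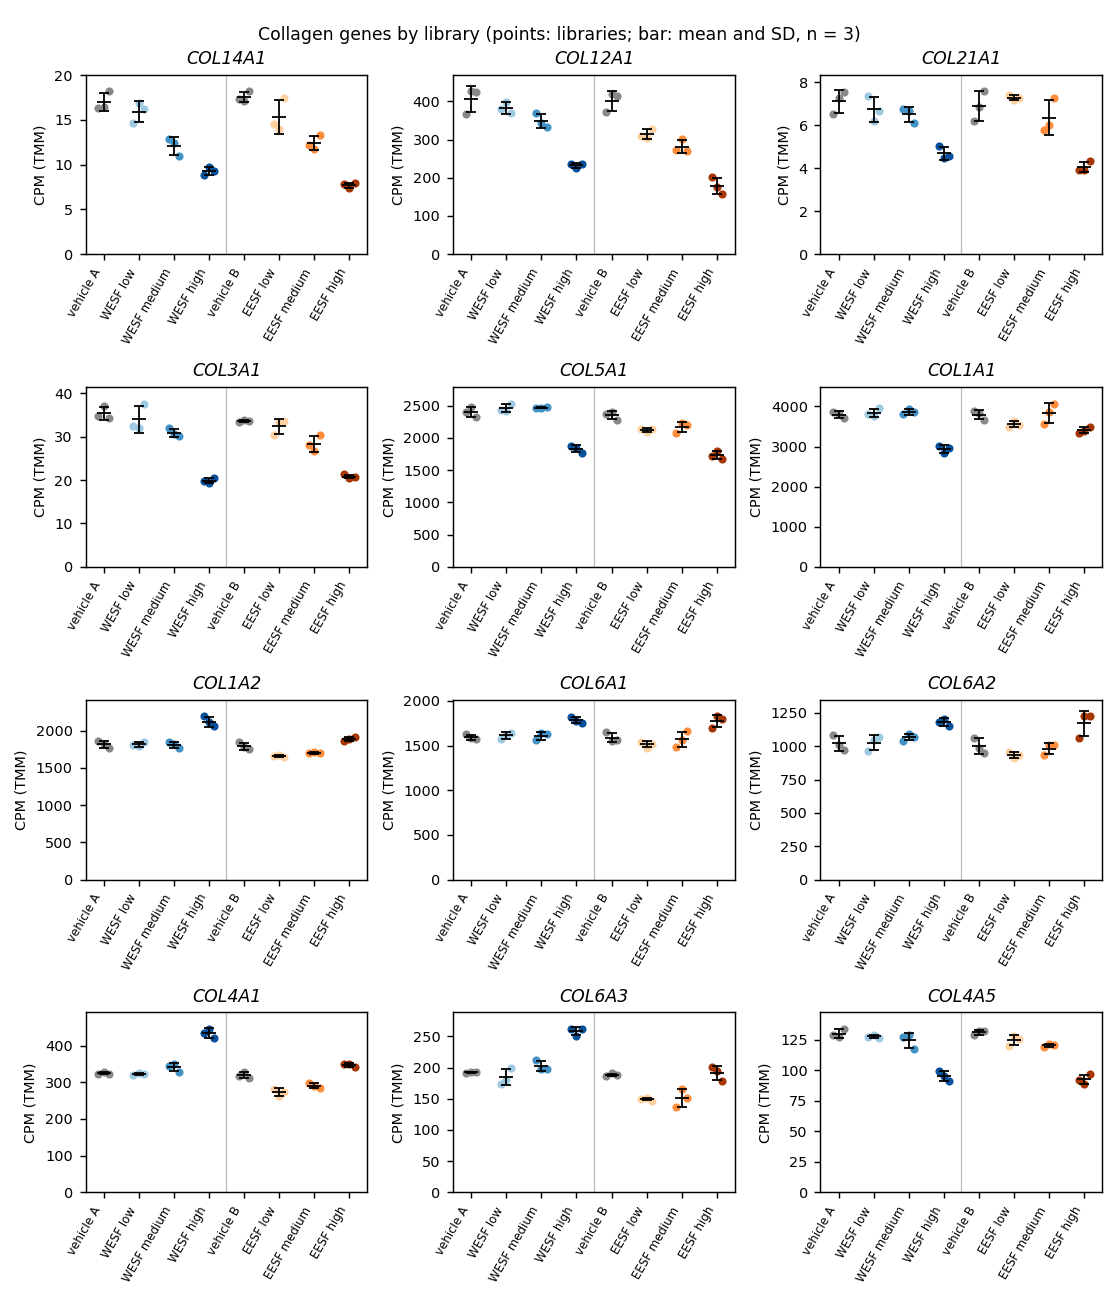
CPM of 12 collagen genes in each library of the 8 groups (points), with mean and SD (bars, n = 3); every vertical axis starts at 0 and the grey line separates the batches. COL14A1, COL12A1, COL21A1 and COL3A1 are lower at both high doses, COL1A2 rises with WESF high while COL1A1 falls, and COL6A3 and COL4A1 lie below the vehicle at the low dose of EESF and above it at the high dose of WESF.

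Of the 11 fibrillar collagens, 9 were tested, and 8 reached the filter's level in both groups. With WESF high 2 of the 8 rose (COL1A2 and COL5A3) and 4 fell (COL3A1, COL5A1, COL1A1 and COL11A1), beside 34.7% and 34.8% of all genes. With EESF high 0 rose and 5 fell (the same 4 and COL5A2), beside 29.5% and 29.1%. COL11A2 and COL27A1 did not pass the test with either extract, with log2 values between −0.13 and 0.41. The sum of the class was 8172 to 8525 CPM in vehicle A and 7138 to 7444 at the high dose of WESF, 8072 to 8466 in vehicle B and 7246 to 7405 at the high dose of EESF.

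COL3A1 (ENSG00000168542, chromosome 2, 188974373 to 189012746, plus strand) encodes the chain of type III collagen, which forms thin fibrils with type I. It was at 34.8, 37.2 and 34.3 CPM in vehicle A, 32.5, 32.0 and 37.7 at the low, 32.0, 30.6 and 30.2 at the medium and 19.9, 19.4 and 20.5 at the high dose of WESF. The EESF series ran at 33.5, 34.0 and 33.7 CPM in the vehicle, 30.4, 33.3 and 33.6 at the low, 28.0, 26.7 and 30.3 at the medium and 21.3, 20.5 and 20.7 at the high dose of EESF. The medium and high doses lay below their vehicles in every library. At the high dose the gene was 1.78-fold lower with WESF (log2 −0.83, SE 0.0585, adjusted p = 1.70e-09) and 1.62-fold lower with EESF (log2 −0.70, SE 0.0581, adjusted p = 1.10e-06). In 41.67% of the libraries its expected count was not a whole number, so reads it shares with other genes had been divided. How far this moves its level was not measured.

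COL1A1 (ENSG00000108821, chromosome 17, 50184101 to 50201632, minus strand) was at 3871, 3820 and 3702 CPM in vehicle A, 3810, 3752 and 3954 at the low, 3801, 3939 and 3853 at the medium and 3022, 2837 and 2962 at the high dose of WESF. Batch B had it at 3880, 3843 and 3672 CPM in the vehicle, 3486, 3637 and 3546 at the low, 3563, 3857 and 4073 at the medium and 3339, 3382 and 3486 at the high dose of EESF. The high doses lay below their vehicles and the low dose of EESF did too, while the other groups overlapped with the vehicle. The log2 fold change at the high dose was −0.37 (SE 0.0445, adjusted p = 1.21e-06) with WESF and −0.16 (SE 0.0469, adjusted p = 0.0115) with EESF. The call with EESF was lost in 1 of 13 alternatives (adjusted p up to 0.0576).

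COL1A2 (ENSG00000164692, chromosome 7, 94394895 to 94431227, plus strand), whose product joins that of COL1A1 in the same molecule, was at 1859, 1825 and 1766 CPM in vehicle A, 1801, 1794 and 1846 at the low, 1843, 1821 and 1761 at the medium and 2194, 2110.0 and 2058 at the high dose of WESF. The batch B levels were 1842, 1778 and 1751 CPM in the vehicle, 1654, 1670.0 and 1645 at the low, 1693, 1710.0 and 1700.0 at the medium and 1856, 1889 and 1919 at the high dose of EESF. It was above every vehicle library at both high doses and below every vehicle library at the low and medium doses of EESF. It rose with WESF high (log2 0.22, SE 0.0438, adjusted p = 0.000240) and did not pass the test with EESF high (log2 0.08, 95% interval −0.01 to 0.17, adjusted p = 0.176).

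COL5A1 (ENSG00000130635, chromosome 9, 134641803 to 134844843, plus strand) encodes a chain of type V collagen, which sits inside type I fibrils and limits their width. It was at 2397, 2478 and 2328 CPM in vehicle A, 2423, 2422 and 2531 at the low, 2460.0, 2464 and 2479 at the medium and 1880.0, 1835 and 1771 at the high dose of WESF. For EESF and vehicle B it measured 2362, 2407 and 2283 CPM in the vehicle, 2131, 2084 and 2141 at the low, 2080.0, 2226 and 2193 at the medium and 1715, 1796 and 1675 at the high dose of EESF. All 3 doses of EESF lay below vehicle B, and of WESF the high dose alone lay below vehicle A. At the high dose the log2 fold change was −0.39 (SE 0.0444, adjusted p = 5.71e-07) with WESF and −0.44 (SE 0.0491, adjusted p = 1.00e-05) with EESF. COL5A2, its partner chain, gave −0.07 with WESF (adjusted p = 0.174) and fell by 0.15 with EESF (adjusted p = 0.0183), and COL5A3, at 1.45 CPM in the vehicle libraries, gave 0.48 and 0.49 (adjusted p = 0.0358 and 0.0538). COL11A1, a minor fibrillar chain, fell by 0.33 and 0.28 (adjusted p = 0.000125 and 0.00185).

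The network collagens did not move one way. Of 9 genes 8 were tested, and 6 reached the filter's level in both groups. Of these 2 rose and 4 fell with WESF high, beside 34.7% and 34.8% of all genes, and 1 rose and 3 fell with EESF high, beside 29.5% and 29.1%. COL4A1, which with COL4A2 forms the common type IV collagen of basement membranes, rose from 325 ± 2.72 CPM in vehicle A to 434 ± 13.1 at the high dose of WESF (SD, n = 3; log2 0.42, SE 0.0417, adjusted p = 1.30e-07). With EESF high it went from 319.5 ± 8.01 to 347 ± 5.40 (log2 0.12, SE 0.0477, adjusted p = 0.0475), a call that 12 of 13 alternatives lost, with adjusted p up to 0.162. COL4A2 rose by 0.12 with WESF (adjusted p = 0.0198), a call lost without any of 3 libraries (adjusted p up to 0.110), and gave 0.01 with EESF (adjusted p = 0.908). The other pair on the list of abundant type IV chains, COL4A5 and COL4A6, fell with both extracts. COL4A5 went from 129.9 ± 3.57 to 95.3 ± 4.29 CPM with WESF high (log2 −0.45, adjusted p = 2.25e-07) and from 131 ± 2.06 to 92.5 ± 3.85 with EESF high (log2 −0.50, adjusted p = 5.76e-06). COL4A6 fell by 0.19 and 0.36 on the log2 scale (adjusted p = 0.00101 and 0.000140).

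The 6 type IV genes lie in 3 pairs, each transcribed outward from a shared stretch between the starts. The RefSeq starts of COL4A1 and COL4A2 on chromosome 13 were 126 bases apart, those of COL4A3 and COL4A4 on chromosome 2 were 418 apart, and those of COL4A5 and COL4A6 on the X chromosome were 379 apart. The stretch between COL4A1 and COL4A2 (chr13:110307158-110307283, GRCh38.p14, plus strand) and the 250 bases before COL4A5 (chrX:108439588-108439837, plus strand) are shown because the pairs moved in opposite directions with WESF. Capitals mark the box CCAAT, which on the other strand appears as ATTGG, and the GC box GGGCGG.
between the starts of COL4A1 and COL4A2: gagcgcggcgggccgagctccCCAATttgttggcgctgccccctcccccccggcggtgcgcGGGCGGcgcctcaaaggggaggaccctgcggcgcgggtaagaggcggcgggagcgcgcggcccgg
COL4A5: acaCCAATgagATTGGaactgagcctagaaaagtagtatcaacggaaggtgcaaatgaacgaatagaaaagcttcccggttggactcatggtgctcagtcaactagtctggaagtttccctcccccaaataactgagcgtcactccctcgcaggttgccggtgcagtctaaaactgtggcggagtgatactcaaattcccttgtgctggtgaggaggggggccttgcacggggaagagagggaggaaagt
The first held 1 CCAAT and 1 GGGCGG at 80.2% G and C, and the second held 2 CCAAT and no GGGCGG at 51.2%. RefSeq promoter windows were matched for 32 of the 44 collagen genes. In the 250 bases before a start, on either strand, GGGCGG was found for 21 of these 32 genes, CCAAT for 11, TATAAA for 7 and TGANTCA for 1. Among 35116 windows of all genes the shares were 42.6%, 32.0%, 10.7% and 6.6%. A gene can have several windows, so the counts of genes and the shares of windows are not the same quantity. No motif overlapped another in the 3 sequences printed, and a match of letters is not evidence that a factor binds there. In the annotation the gene bodies of COL4A1 and COL4A2 overlap on opposite strands, and although the library kit keeps the strand, the sources used here do not state whether counting used it.

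The remaining type IV pair was barely detected. COL4A3 had 54 counts in the WESF high libraries and 27 in vehicle A, a scaled ratio of 2.41 (exact 95% interval 1.49 to 3.98, counting error only). It passed the filter through WESF high, so its direction was fixed and no call is made. With EESF high it had 71 counts against 22 in vehicle B, a scaled ratio of 2.05 (1.25 to 3.47, counting error only). It passed the filter there through EESF high, so no call is made there either. Its EESF high libraries overlapped with vehicle B, and edgeR's test was not passed (adjusted p = 0.0543). COL4A4 gave 0.14 with WESF and −0.47 with EESF (adjusted p = 0.715 and 0.332). COL8A1, a chain of the short-chain network collagen type VIII, fell by 0.41 and 0.35 (adjusted p = 2.82e-07 and 7.54e-05), and COL8A2, its partner, fell by 0.38 with WESF (adjusted p = 0.0119) and gave −0.10 with EESF (adjusted p = 0.451).

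Of the beaded-filament and anchoring collagens, 4 of 6 were tested, of which 3 rose and 1 fell with WESF high, beside 34.7% and 34.8% of all genes, and 2 rose and 0 fell with EESF high, beside 29.5% and 29.1%. Those that rose were chains of type VI collagen, COL6A1, COL6A2 and COL6A3 with WESF and the first pair of these with EESF. The other type VI chains, COL6A5 and COL6A6, had too few counts to be tested, and COL6A6 was at 0.324 CPM in vehicle A and 0.238 at WESF high. COL6A1 (ENSG00000142156, chromosome 21, 45981770 to 46005050, plus strand) was at 1626, 1583 and 1574 CPM in vehicle A, 1572, 1624 and 1645 at the low, 1558, 1638 and 1632 at the medium and 1817, 1780.0 and 1749 at the high dose of WESF. The EESF series ran at 1651, 1553 and 1565 CPM in the vehicle, 1541, 1476 and 1523 at the low, 1486, 1564 and 1660.0 at the medium and 1695, 1830.0 and 1798 at the high dose of EESF. The high doses were above their vehicles in every library and the low dose of EESF was below. The log2 fold change was 0.16 with either extract (SE 0.0417 and 0.0510, adjusted p = 0.00267 and 0.0178), and with EESF the call was lost in 5 of 13 alternatives (adjusted p up to 0.102).

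COL6A2 (ENSG00000142173, chromosome 21, 46098112 to 46132848, plus strand) was at 1085, 1008 and 972 CPM in vehicle A, 965, 1045 and 1069 at the low, 1042, 1092 and 1072 at the medium and 1183, 1206 and 1149 at the high dose of WESF. Batch B had it at 1065, 984 and 950.0 CPM in the vehicle, 954, 911 and 937 at the low, 932, 1006 and 1007 at the medium and 1064, 1224 and 1225 at the high dose of EESF. WESF high was above every vehicle library, and EESF high overlapped with vehicle B through its first library. The gene rose by 0.21 with WESF (SE 0.0465, adjusted p = 0.000801) and by 0.23 with EESF (SE 0.0650, adjusted p = 0.00915), a call lost without vehicle B replicate 2 or EESF high replicate 2.

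COL6A3, the long chain that completes the type VI molecule, rose with WESF high from 192 ± 0.732 to 258 ± 6.01 CPM (SD, n = 3; log2 0.43, SE 0.0415, adjusted p = 9.99e-08). In batch B it was at 188 ± 2.25 CPM in the vehicle and 191.5 ± 11.5 at the high dose (log2 0.03, 95% interval −0.08 to 0.13, adjusted p = 0.697). COL7A1, the anchoring fibril chain of skin, fell by 0.14 with WESF (adjusted p = 0.0145) and gave −0.11 with EESF (adjusted p = 0.204).

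Of 4 transmembrane collagens 2 were tested. COL13A1, a cell surface collagen, gave 0.12 with WESF high (adjusted p = 0.129) and rose by 0.23 with EESF high (adjusted p = 0.0115), a call lost without EESF high replicate 2 (adjusted p = 0.0601), and COL17A1, the hemidesmosome collagen, did not pass the test (adjusted p = 0.674 and 0.172). Of 4 multiplexins and other collagens 2 were tested. COL18A1, the source of endostatin, fell by 0.12 with WESF (adjusted p = 0.0332) and gave −0.07 with EESF (adjusted p = 0.301), and 66.67% of its expected counts were not whole. COL15A1 did not pass the test with either (adjusted p = 0.877 and 0.0995).

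At the lower doses no collagen gene was a DEG. Of all tested genes 0.275% were DEGs with WESF medium, 0.755% with EESF medium and 0.271% with EESF low. DESeq2 also gave 0 collagen DEGs in these comparisons, and by edgeR 7, 10 and 11 of the 30 tested collagen genes, in that order, had an unadjusted p under 0.05. Over all tested genes these were 2753 of 13112, 3944 of 12978 and 3393 of 12892. By the adjusted p, COL14A1 and COL12A1 fell at the medium dose of WESF, by 0.49 and 0.23 on the log2 scale (adjusted p = 0.00499 and 0.0444), 2 of 30 (6.67%) beside 2.20% of all genes that fell and 1.89% that rose. The call of COL12A1 was lost in 6 of 13 alternatives, with adjusted p up to 0.225. EESF medium had 4 of 30 that fell (13.3%, beside 8.48% of all genes) and 0 rose (beside 6.90%). They were COL12A1 (−0.51, adjusted p = 0.000168), COL14A1 (−0.50, adjusted p = 0.000773), COL6A3 (−0.31, adjusted p = 0.00257) and COL3A1 (−0.25, adjusted p = 0.0121), whose call was lost without vehicle B replicate 2 or EESF medium replicate 2 (adjusted p up to 0.0593).

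At the low dose of EESF 6 of 30 fell (20.0%, beside 6.24% of all genes) and 0 rose (beside 3.11%). The falls were of 0.36 for COL12A1, 0.34 for COL6A3, 0.23 for COL4A1, 0.17 for COL4A2, 0.16 for COL5A1 and 0.12 for COL1A2, with adjusted p between 0.000801 and 0.0430. Leaving out vehicle B replicate 2 reduced them to 2 (COL6A3 and COL12A1), and leaving out any library of the dose to 3 (these and COL4A1). The call of COL1A2 was lost in 8 of 13 alternatives, with adjusted p up to 0.171, and those of COL4A2 and COL5A1 in 4 each. At the low dose of WESF 0 of 30 passed by edgeR or DESeq2, 0 of 30 had an unadjusted p under 0.05, and 0% of all 13131 tested genes passed, while 470 of them had an unadjusted p under 0.05. Collagen genes at that dose lay between −0.30 and 0.28 on the log2 scale. Vehicle B against vehicle A likewise gave 0 of 29 collagen genes by either tool, 0 with an unadjusted p under 0.05, and 0% of all 13001 genes, of which 371 had an unadjusted p under 0.05. With a block for the replicate number COL7A1, COL5A1, COL6A2 and COL1A2 passed (log2 −0.08 to −0.02), beside 478 of 13001 genes.

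The levels of COL6A3 and COL4A1 over the doses of EESF were not in the order of the dose. COL6A3 was at 186 to 191 CPM in vehicle B, 147 to 150.3 at the low, 137 to 166 at the medium and 179 to 201 at the high dose. In the same order, COL4A1 was at 312 to 328, 263 to 283, 285 to 298 and 341 to 350.4. The means at the low dose were 149 CPM for COL6A3 and 273 for COL4A1, and those at the high dose 191.5 and 347. These genes, and a comparison of their high with their low dose, were picked out after their values were seen, so the order over the doses is a description and no call is made from it. At the low dose of WESF the libraries overlapped with vehicle A for COL6A3, at 185 ± 13.4 and 192 ± 0.732 CPM (SD, n = 3), and for COL4A1, at 323 ± 3.64 and 325 ± 2.72.

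The change at the high dose differed between the extracts for 5 collagen genes, by an interaction term in edgeR over 12 libraries. It was lower with EESF for COL6A3, COL12A1, COL14A1 and COL4A1, 4 of 31 (12.9%) beside 13.3% of all tested genes, and higher for COL1A1, 1 of 31 (3.23%) beside 12.7%. The call was lost in 9 of 20 alternatives for COL14A1, in 4 for COL12A1 and in 2 for COL1A1, and 3 genes passed without vehicle A replicate 1 or without vehicle B replicate 3. None of these was beyond 1.5-fold, where 3.88% of all tested genes were, and DESeq2 gave 0 beyond it too. COL6A3, which rose with WESF and gave 0.03 with EESF, had a difference of −0.40 (SE 0.0645, adjusted p = 0.000582). COL4A1 differed by −0.30 (SE 0.0566, adjusted p = 0.00167). The other 26 tested collagen genes did not pass this test, among them COL3A1 and COL21A1, which does not show that the extracts acted alike on them.

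Ratios between chains, most of which join in the same molecule, were measured in each library as a ratio of CPM per kilobase, and at the high doses some pairs left the range of the vehicle and others did not. The ratio of COL1A1 to COL1A2 was 2.51 ± 0.00853 in vehicle A and 1.67 ± 0.0579 at the high dose of WESF (SD, n = 3), and 2.55 ± 0.0420 in vehicle B and 2.16 ± 0.0159 at the high dose of EESF. At the low and medium doses it overlapped with the vehicle. The ratio of COL5A1 to COL5A2 went from 5.21 ± 0.0817 to 4.16 ± 0.129 with WESF high and from 5.17 ± 0.0526 to 4.22 ± 0.176 with EESF high, and was below vehicle B at the low dose too, at 4.94 ± 0.0782. The ratio of COL4A5 to COL4A6 went from 1.17 ± 0.0395 to 0.974 ± 0.0170 with WESF high and from 1.198 ± 0.0445 to 1.09 ± 0.0410 with EESF high. In the basement membrane pair COL4A1 to COL4A2 it went the other way, from 0.597 ± 0.0229 to 0.731 ± 0.00690 and from 0.594 ± 0.0173 to 0.642 ± 0.0240. The ratio of COL4A1 to COL4A5, chains of different type IV molecules, went from 2.03 ± 0.0700 to 3.69 ± 0.130 with WESF high and from 1.97 ± 0.0551 to 3.04 ± 0.169 with EESF high, while at the low dose of EESF it was below the vehicle, at 1.78 ± 0.126, and at the medium dose of WESF above it, at 2.22 ± 0.0377. In none of these did a high-dose library overlap with its vehicle, and each gave p = 0.10 in a 2-sided exact permutation test, the smallest that 3 against 3 libraries allow, so that this test cannot reach 0.05. The ratio of COL6A1 to COL6A2 overlapped with the vehicle, at 1.51 ± 0.0585 and 1.46 ± 0.0299 in batch A and 1.53 ± 0.0476 and 1.46 ± 0.0633 in batch B (exact permutation p = 0.300 for each). The ratio of COL8A1 to COL8A2 overlapped as well, at 13.4 ± 1.56 and 13.3 ± 2.01 in batch A and 13.4 ± 1.295 and 11.2 ± 0.971 in batch B (exact permutation p = 0.900 and 0.200). The ratio of COL6A3 to COL6A1 was above vehicle A with WESF high, at 0.0373 ± 0.00115 and 0.0310 ± 0.000651 (exact permutation p = 0.10). It was 0.0305 ± 0.00131 in vehicle B, overlapped with it at EESF high (0.0278 ± 0.00249) and was below it at the medium (0.0248 ± 0.00221) and low dose (0.0254 ± 0.000753) of EESF, each of the last pair with exact permutation p = 0.10. The absolute ratios depend on the annotated exon lengths, which are the same in every library.

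**Figure D4:**
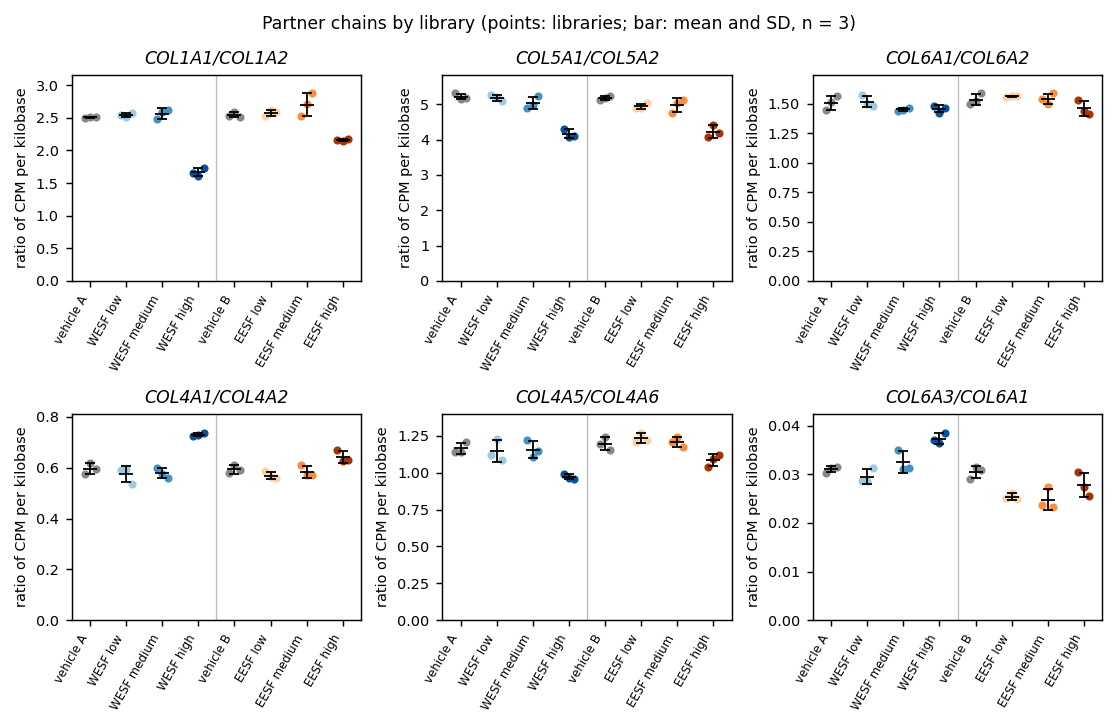
Ratio of CPM per kilobase for 6 pairs of collagen chains in each library (points), with mean and SD (bars, n = 3), over the 8 groups; axes start at 0. COL1A1 to COL1A2 and COL5A1 to COL5A2 are lower at both high doses, COL4A1 to COL4A2 is higher, and COL6A1 to COL6A2 overlaps with the vehicle.

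Collagen chains are hydroxylated, folded and exported from the endoplasmic reticulum, trimmed at their ends and cross-linked outside the cell, and 5 lists of genes for these steps and for proteins that bind collagen were read beside them. CREB3L1 and the genes named from these lists that were not DEGs were chosen after their values were seen. The counts below, over genes at the filter's level in both groups, stand beside 34.7% of all such genes that rose and 34.8% that fell with WESF high, and 29.5% and 29.1% with EESF high. Of 15 genes that hydroxylate or glycosylate procollagen 14 reached that level with either extract, of which 5 rose and 1 fell with WESF high, and 5 rose and 2 fell with EESF high. The DEG of this list with either extract was P3H4, part of a lysyl hydroxylation complex, which rose from 73.4 to 132 CPM with WESF (log2 0.85, adjusted p = 2.46e-11) and from 74.6 to 139.7 with EESF (log2 0.91, adjusted p = 6.34e-08). PLOD2, the lysyl hydroxylase of the chain ends, fell, and its log2 values were −0.25 with WESF and −0.46 with EESF (adjusted p = 4.49e-05 and 5.25e-05).

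Among 11 genes of procollagen folding and export, 8 rose and 3 fell with WESF high, beside 34.7% and 34.8% of all genes, and 7 rose and 2 fell with EESF high, beside 29.5% and 29.1%. The COPII coat genes SEC23A and SEC24D, which form the vesicles that carry procollagen, rose by 0.87 each on the log2 scale at the high dose of WESF (adjusted p = 2.63e-11 and 5.82e-11), and EESF gave 0.47 and 0.39 (adjusted p = 2.07e-05 and 0.000405). MIA2, a cargo receptor of these vesicles, rose by 0.66 and 0.52, and CREB3L2, a membrane-bound transcription factor that drives secretory genes, rose by 0.64 with WESF (adjusted p = 4.25e-08). The related factor CREB3L1 fell in both comparisons. Its log2 value was −0.61 at the high dose of WESF (adjusted p = 6.41e-08), and EESF gave −0.18 (adjusted p = 0.0220). SERPINH1, the collagen chaperone HSP47, fell by 0.23 with WESF (adjusted p = 0.000155). In this list 4 genes rose and 1 fell as DEGs with WESF, beside 10.2% and 12.1% of all genes, and the changes with EESF were under 1.5-fold. The interaction term was past the threshold for 7 of the 11 genes, 2 higher and 5 lower with EESF, beside 12.7% and 13.3% of all tested genes. Among those named here it was for SEC23A (−0.39, adjusted p = 0.00112), SEC24D (−0.47, adjusted p = 0.00138), CREB3L2 (−0.47, adjusted p = 0.00600), CREB3L1 (0.43, adjusted p = 0.00272) and SERPINH1 (0.24, adjusted p = 0.0166).

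Of 13 genes that remove propeptides or cross-link fibrils 12 were tested, of which 1 rose and 7 fell with WESF high, beside 34.7% and 34.8% of all genes, and 2 rose and 3 fell with EESF high, beside 29.5% and 29.1%. LOX, the lysyl oxidase that cross-links collagen and elastin, rose from 112 to 219.9 CPM with WESF (log2 0.97, adjusted p = 4.07e-12) and from 116 to 159.6 with EESF (log2 0.46, adjusted p = 3.16e-05), and its interaction term was −0.50 (adjusted p = 0.000171). Its relative LOXL1 fell by 0.60 with WESF (adjusted p = 3.76e-09), and the interaction term was 0.55 (adjusted p = 0.000426). In this list the interaction term was past the threshold for 3 of 12 genes, 2 higher and 1 lower with EESF, beside 12.7% and 13.3% of all tested genes. TLL1, a protease that removes the propeptide at the C-terminal end, fell by 0.90 and 0.80 (adjusted p = 1.37e-08 and 2.66e-06), and ADAMTS14, which removes the N-terminal one, by 0.88 and 0.70 (adjusted p = 4.94e-08 and 1.53e-05).

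Of 14 collagen-binding matrix proteins 12 reached the filter's level in both groups, of which 3 rose and 5 fell with WESF high, and 0 rose and 8 fell with EESF high, none as a DEG. TNXB, tenascin-X, was at 0.312 CPM in vehicle A and 3.46 at WESF high, and at 0.370 and 1.29 in vehicle B and EESF high. It passed the filter through the high dose group in both batches, so its direction was fixed and no call is made. Of 10 collagen receptors and uptake genes 8 were tested, of which 2 rose and 3 fell with WESF high and 1 rose and 4 fell with EESF high. ITGA11 and DDR1, receptors of fibrillar collagen, fell with both extracts, by 0.29 and 0.37 with WESF and by 0.41 and 0.21 with EESF.

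**Figure D5:**
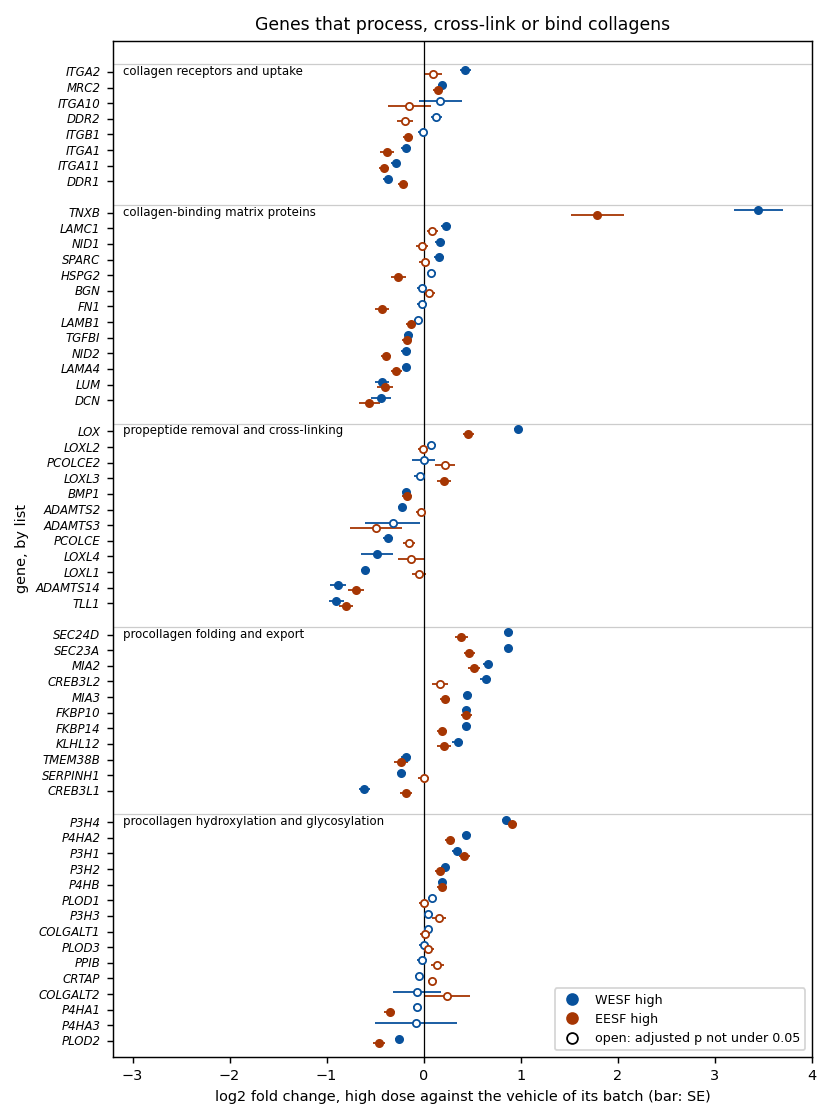
log2 fold change (points) with SE (bars) of tested genes that process, cross-link or bind collagens, for WESF high (blue) and EESF high (brown) against the vehicle of the batch; open points did not pass the test. LOX, P3H4, SEC23A and SEC24D lie to the right of 0 with both extracts, TLL1 and ADAMTS14 to the left, and TNXB, whose direction the filter fixed, furthest right.

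The labelled cell type was checked against 12 astrocyte and glioma markers. VIM, the most abundant at 4821 CPM in vehicle A, and CD44, at 2836, were high. SOX9, a transcription factor of glia, was at 81.7 CPM, the glutamate transporter SLC1A3 at 31.8 and the intermediate filament NES at 7.29. GFAP was at 0.149, S100B at 0.0489, ALDH1L1 at 0.0482, SLC1A2 at 0.401, FABP7 at 0.0121, AQP4 at 0 and SOX2 at 0 CPM. Of the 12 genes 5 were tested, and 4 of them fell and 0 rose with either extract, beside 34.8% and 34.7% of all genes with WESF high and 29.1% and 29.5% with EESF high. The summed level of the 12 genes was 7699 to 7842 CPM in vehicle A and 6486 to 6728 at WESF high, and 7836 to 8011 in vehicle B and 7270.0 to 7516 at EESF high. Thus 7 of the 12 markers, GFAP among them, were at or near 0 and 5 were expressed, and the cells are described here by the label of the line.

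Markers of other cells moved at the high doses as well. Of 12 fibroblast and pericyte markers 11 were tested, of which 8 fell and 1 rose with WESF high, beside 34.8% and 34.7% of all genes, and 7 fell and 1 rose with EESF high, beside 29.1% and 29.5%, and the counts of the other marker lists stand beside the same shares. Their summed level was 1030.0 to 1071 CPM in vehicle A and 756 to 792 at WESF high, 1031 to 1088 in vehicle B and 853 to 877 at EESF high. THY1, a surface glycoprotein of fibroblasts, led the list at 505 CPM in vehicle A and fell, with log2 values of −0.62 and −0.26 for WESF and EESF. PDGFRB and PDGFRA, receptors of platelet-derived growth factor, fell too (−0.80 and −0.73, and −0.66 and −0.60), and DCN and LUM of this list are also among the matrix proteins above. All 4 myofibroblast markers were tested, of which 3 fell and 1 rose with WESF high, and 1 fell and 0 rose with EESF high. ACTA2, smooth muscle actin, fell from 103 to 50.8 CPM and from 98.8 to 56.9, and the list, led by TAGLN, summed to 356 to 396 CPM in vehicle A, 265 to 281 at WESF high, 356 to 397 in vehicle B and 308 to 365 at EESF high. Of 6 endothelial markers 1 reached the filter's level in both groups with WESF high and 2 with EESF high, of which 0 passed the test. PECAM1 passed the filter through vehicle A with WESF high, so no call is made there, and the list, led by TEK, summed to no more than 3.25 CPM in any vehicle or high-dose library. Of 6 epithelial markers 3 were tested, and with either extract KRT8 and CLDN4 rose and KRT18, a simple epithelial keratin, fell, with log2 values of 0.20, 1.37 and −1.42 for WESF and 0.31, 1.35 and −0.67 for EESF. The list, whose largest part is KRT18, summed to means of 142 and 70.6 CPM in vehicle A and WESF high and 134 and 99.7 in vehicle B and EESF high. Of 6 neuron and oligodendrocyte markers 3 reached the filter's level in both groups with either extract, of which MBP rose and SNAP25 and SYT1 fell. RBFOX3, at 0.112 CPM in vehicle A and 0.709 at WESF high, passed the filter through the latter group and is not counted. The list, led in both vehicles by SNAP25, summed to means of 60.6 and 35.8 CPM and of 62.9 and 35.8. The part of these markers in the collagen results was not tested.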

How the data were processed

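Total RNA of 24 libraries of SW1783 cells was sequenced from a directional kit with paired reads. Per the submitters' processing notes and the study's methods, the authors checked reads with FastQC 0.11.9, trimmed them with Trim Galore 0.6.6, aligned them to GRCh38 with STAR 2.7.9a and counted them per gene with RSEM 1.3.3. They deposited expected counts, not normalized or filtered. RSEM divides reads that match several genes, and 10.9% of the values are not whole. Symbols, biotypes, positions and exon lengths came from GENCODE release 44 (56558 of 60675 genes matched), and promoters from RefSeq (GRCh38.p14).

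Expected counts were rounded, protein-coding genes that passed filterByExpr (minimum count 10) were kept, and the fit of a comparison held just the 6 libraries compared (12 for the interaction) with edgeR 4.0.16 in R 4.3.3 (TMM, quasi-likelihood test, 2-sided, Benjamini-Hochberg over all genes tested). Alternatives were DESeq2 1.42.0, its size factors, no filter, all genes of the table, thinned counts, all 4 groups of a batch fitted together, a block for the replicate number, and fits without 1 library. Counts at the high doses hold genes that reached the CPM of the filter in all libraries of both groups, a rule added after seeing the data, with p-values adjusted over all genes tested. Code was tested on simulated data. The collagen genes, the lists and the tests were chosen with earlier results of these data known. Values in each library are given for collagen DEGs at a high dose with a mean of at least 5 CPM in the vehicle or high-dose group and for the 5 highest genes per length in the vehicles. From the other lists at most 4 DEGs with the largest changes were named.

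Replicates differed by more than sampling noise (chi-square per degree of freedom 2.64 to 8.56). For genes with many counts the number of libraries therefore limits precision more than depth. Depth also limits COL20A1, COL4A3, the genes removed by the filter and other tested genes with few counts. With WESF high the SE was 0.285 for COL9A2, 0.406 for COL11A2 and 0.316 for COL4A4, and 0.0445 for COL1A1. Same-numbered treated and vehicle libraries did not deviate together (correlations −0.08 to 0.08), so the numbers were not taken as pairs. Same-numbered vehicle libraries of the batches differed less (3.28 to 3.56) than those with other numbers (4.22 to 11.01), and the labels do not say that they share a source.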

Additional observations from a re-analysis of the deposited data

Results flagged for a closer look

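For 5 collagen genes the change at the high dose differed between EESF and WESF by the interaction term of edgeR's fit, 4 of 31 lower (12.9%) and 1 higher (3.23%) with EESF, beside 13.3% and 12.7% of all tested genes, so that the count is not above that of genes at large. The difference (EESF minus WESF, log2 scale) was −0.40 for COL6A3 (adjusted p = 0.000582), −0.36 for COL12A1 (adjusted p = 0.0230), −0.31 for COL14A1 (adjusted p = 0.0317), −0.30 for COL4A1 (adjusted p = 0.00167) and 0.21 for COL1A1 (adjusted p = 0.0145). COL12A1 and COL14A1 fell with both extracts and further with EESF. COL1A1 fell with both and further with WESF, and its call with EESF was lost in 1 of 13 alternatives (adjusted p up to 0.0576). COL4A1 rose with WESF, and its call with EESF (log2 0.12, adjusted p = 0.0475) was lost in 12 of 13 alternatives. Extract, batch and mass of the dose cannot be told apart here. COL6A3 and COL4A1 kept a difference past the threshold in all 20 alternatives, with adjusted p up to 0.00757 and 0.0143. COL14A1 lost it in 9 of 20, COL12A1 in 4 and COL1A1 in 2, with adjusted p up to 0.0836, 0.0642 and 0.0592.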

How the results depend on the processing

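COL14A1, COL12A1 and COL3A1 stayed DEGs in all 13 alternatives at both high doses, and COL21A1 with EESF high, while with WESF high COL21A1 was under 1.5-fold without any of 4 libraries (log2 −0.58 to −0.55). By the adjusted p alone, counts moved at the lower doses. The medium dose of WESF gave 2 genes, 1 with all genes of the table, 1 with the replicate number as a block and 1 to 4 without each library in turn (4 without vehicle A replicate 1, and 1 without vehicle A replicate 2 or 3 or WESF medium replicate 2 or 3). The medium dose of EESF gave 4, 7 by DESeq2's Wald test, 7 with all genes of the table and 3 to 8 without each library (8 without vehicle B replicate 1). The low dose of EESF gave 6, and 2 to 8 without each library. The interaction term at the high dose gave 5, 2 with the replicate block, 3 to 6 without each library (3 without vehicle A replicate 1 or vehicle B replicate 3), and 6 with a term shared by same-numbered vehicle libraries, added after seeing the data. Vehicle B against vehicle A gave 0, and 4 with the replicate block (COL7A1, COL5A1, COL6A2 and COL1A2, between −0.08 and −0.02 on the log2 scale, 4 of 29 tested, beside 478 of 13001 genes in that fit). COL1A1 with EESF high lost its call under the block (adjusted p = 0.0576). COL6A3 with EESF high was 0.03, and −0.01 to 0.07 without each library in turn, being below 0 without EESF high replicate 1, and never past the threshold. Of 646 alternative values of 47 single-gene results, 577 kept direction and side of the threshold, 68 lost the call and 1 turned. Results whose direction the filter fixed (COL20A1 and COL4A3 with WESF high) and those chosen after seeing the data (COL6A3 and COL4A1 at the high against the low dose of EESF) are not among them. Also outside them are the calls of COL16A1, COL11A1, COL7A1, COL5A3, COL18A1 and COL8A2 with WESF high. The same holds for COL16A1, COL11A1 and COL5A2 with EESF high and for the genes of the other lists. Whether these calls hold in the alternatives was not examined gene by gene. The causes of the moves between alternatives were not tested. Depth limits COL20A1, COL4A3, the 13 genes removed by the filter and other genes with few counts, such as COL9A2, COL11A2 and COL4A4.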
